A study of Homo sapiens with 27 samples.

Results

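The comparison described here asks what changed in the transcriptome of VPS37C-depleted cells when VPS37A was depleted as well. DLD1 cells, an established human colorectal carcinoma line of epithelial origin, received siRNAs against VPS37A and VPS37C together (siVPS37AC, 3 libraries) or against VPS37C alone (siVPS37C, 3 libraries), and were collected 72 h after transfection. The 6 libraries were all those of these groups, of 27 in the whole series, and each siVPS37AC library was paired with the siVPS37C library of the same replicate number, which the labels also give as the batch. Both groups carried the same VPS37C siRNA, and the VPS37A siRNA was the difference between them; 1 siRNA sequence per paralog was used, so loss of VPS37A and any other effect of its siRNA cannot be told apart. Whether the total amount of siRNA was matched between the groups is not given in the sources used here. Cells given siRNAs against VPS37A (siVPS37A), VPS37B (siVPS37B), both of these (siVPS37AB), VPS37B and VPS37C (siVPS37BC) or all 3 paralogs (siVPS37ABC), with 3 libraries each, lent their spread to the tests and served for comparison. No library of the control siRNA or of untransfected cells entered the tests. RNA was read with a multiplex PCR panel of gene-specific amplicons (Ion AmpliSeq), and levels are in TPM, transcripts scaled to a total of 1000000 in each library, as deposited.

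VPS37 proteins are alternative subunits of ESCRT-I, a cytosolic complex built from TSG101, VPS28, a VPS37 protein and an MVB12 or UBAP1 subunit. ESCRT-I sorts ubiquitinated membrane proteins, such as activated growth factor and cytokine receptors, into vesicles inside endosomes, from which they reach the lysosome, and it also takes part in the closure of autophagosomes and in cytokinesis. VPS37A, VPS37B and VPS37C can each occupy the VPS37 position, and in the present comparison VPS37B was the paralog left untargeted.

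The libraries held 12266245, 10166915 and 11911077 reads in siVPS37AC cells and 12962906, 7881556 and 7893429 reads in siVPS37C cells, as whole reads recovered from the TPM values. All 11 markers of epithelial cells on the list used were in the table, and their summed level lay between 10407 and 11094 TPM in siVPS37AC cells and between 9764 and 11930 TPM in siVPS37C cells. Of the fibroblast, leukocyte and endothelial markers, 1 of 9, 3 of 8 and 1 of 6 were in the table, with summed levels of at most 4.27, 12.4 and 4.50 TPM in siVPS37AC cells and at most 3.32, 13.5 and 4.82 TPM in siVPS37C cells. The number that ends each library's description in the labels, whose meaning they do not give, was 80, 84 and 88 for siVPS37AC and 81, 85 and 603 for siVPS37C, so it differed within every pair and no number was common to both groups; libraries of other groups shared these numbers.

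VPS37A transcript was at 0.593, 0.464 and 0.528 TPM in siVPS37AC cells, against 4.08, 5.33 and 5.69 TPM in siVPS37C cells. The groups were far apart in every pair, and siVPS37AC cells kept 10.8% ± 3.2 (SD, n = 3 pairs) of the level in siVPS37C cells. Behind these levels stood 47 reads in the 3 siVPS37AC libraries and 370 in the 3 siVPS37C libraries, and the fitted difference was -1.97 on the log2(TPM + 1) scale (SE 0.13, limma adjusted p = 2.32e-08), a scale that understates the change of so low a gene. VPS37C, the shared target, had 3.11, 4.25 and 4.69 TPM in siVPS37AC cells and 3.98, 3.83 and 3.51 TPM in siVPS37C cells. These ranges overlapped, and the difference was 0.06 (SE 0.21, adjusted p = 0.908). VPS37B, the paralog left in place, had 58.8, 79.0 and 54.7 TPM in siVPS37AC cells, against 42.5, 41.4 and 60.9 TPM in siVPS37C cells. It was higher in siVPS37AC cells in pairs 1 and 2 and lower in pair 3, and the difference of 0.41 did not pass the threshold (SE 0.19, adjusted p = 0.246).

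None of the 5 ESCRT-I genes of the list that were abundant enough to test passed. TSG101, the ubiquitin-binding subunit, had 92.5, 111 and 101 TPM in siVPS37AC cells and 91.2, 123 and 101 TPM in siVPS37C cells, with a difference of -0.04 (SE 0.10, adjusted p = 0.872). UBAP1, a subunit of a form of the complex that acts at endosomes, had 24.2, 32.5 and 32.4 TPM in siVPS37AC cells and 23.4, 20.2 and 19.0 TPM in siVPS37C cells. The groups did not overlap for UBAP1, but replicate 1 of siVPS37AC lay just above the highest siVPS37C library, and the difference of 0.48 missed the threshold (SE 0.15, adjusted p = 0.0834). VPS28 differed by -0.16 (SE 0.18), and MVB12A and MVB12B, both under 10 TPM, by 0.47 (SE 0.21) and -0.05 (SE 0.15). Among 23 further ESCRT genes tested none passed, and the median over them was 0.14. With 2.41% of all tested genes called, lists of this length may hold no call.

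**Figure D1:**
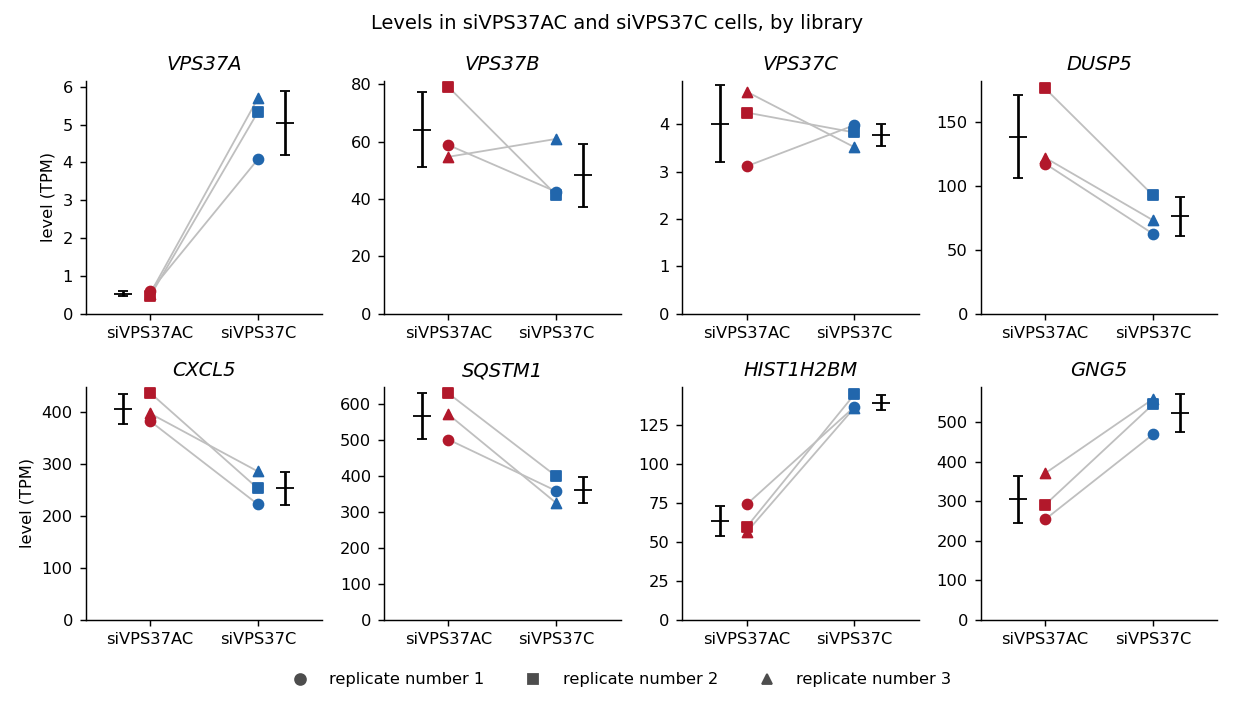
Levels in TPM (vertical axes, from 0) of the 3 VPS37 paralogs and of 5 other genes in each siVPS37AC library (red, left) and each siVPS37C library (blue, right); grey lines join libraries of the same replicate number, and black bars are the mean and SD of 3 libraries. VPS37A was at 0.464 to 0.593 TPM in siVPS37AC cells and at 4.08 to 5.69 TPM in siVPS37C cells, whereas the libraries of both groups overlapped for VPS37B and VPS37C.

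Adding the VPS37A siRNA to the VPS37C siRNA was followed by moderate changes in a small share of genes. Genes that rose included the inflammatory mediators CXCL5 and IL32, the MAP kinase phosphatase DUSP5, the EGFR inhibitor ERRFI1 and the autophagy receptor SQSTM1, and 19 of the 34 genes that fell encoded histones. Of 6480 genes that averaged 10 TPM or more in the knockdown libraries, 156 (2.41%) passed an adjusted p of 0.05, of which 122 (1.88%) were higher in siVPS37AC cells and 34 (0.525%) were lower. The test was a limma fit over the 21 libraries of the 7 knockdown groups, with the replicate number as a block and the Benjamini-Hochberg adjustment over all tested genes. The higher genes differed by 0.35 to 1.14 on the log2(TPM + 1) scale (median 0.57) and the lower genes by -1.13 to -0.41 (median -0.59). Over all tested genes the median difference was 0.07, and 64.0% of genes had a positive one. All 156 genes had the same sign in the 3 pairs, as did 25.2% (higher) and 10.1% (lower) of all tested genes, and for 139 of them the libraries of both groups did not overlap, as for 1059 (16.3%) of all tested genes; the test that called them used the same pairs, so these counts are a description. A difference above 2-fold was reached by 1 gene in each direction. These were SPNS2, a transporter of sphingosine 1-phosphate that was singled out after its values were seen, and HIST1H2BM. SPNS2 had 12.8, 21.9 and 14.4 TPM in siVPS37AC cells and 7.63, 8.45 and 4.6 TPM in siVPS37C cells, a difference of 1.14 (SE 0.20, adjusted p = 0.00722).

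The number of genes called varied widely with the fit and with the libraries in it. Without the block 11 genes passed (8 higher, 3 lower), 10 of them among 59 called genes that were examined singly under the alternatives. A fit on the 6 libraries alone, with 2 residual degrees of freedom, called 2 (both lower). Without siVPS37AC replicate 1, 2 or 3 the counts were 49, 0 (659 at an unadjusted p under 0.05 in limma) and 194, and without siVPS37C replicate 1, 2 or 3 they were 83, 15 and 73. The genes called higher differed by a median of 0.53, 0.70 and 0.53 in pairs 1, 2 and 3, and those called lower by -0.54, -0.74 and -0.46, with the widest separation in pair 2; these medians describe genes chosen on the same pairs. The balance of directions moved with scaling: 78.2% of the calls were higher with TPM as deposited, 56.7% after quantile normalization (38 higher, 29 lower), 48.4% with median-of-ratios scaling (44 higher, 47 lower) and 67.4% with limma-voom on the recovered reads (93 higher, 45 lower). With a term for the library number in place of the block, 1405 genes passed (859 higher, 546 lower), 68 of them among the 156. Since siVPS37AC and siVPS37C share no number, that fit reaches their difference only through libraries of other groups. In it 21 of the 59 genes passed, and the differences were 0.10 for IL32 (adjusted p = 0.864), 0.02 for CST7 (adjusted p = 0.974), 0.27 for KLF6 (adjusted p = 0.499), 0.34 for SPNS2 (adjusted p = 0.494) and -0.19 for NDUFA2 (adjusted p = 0.579), each uncalled and more than 1.5 times smaller. The same held for further genes, among them SQSTM1 (0.36, adjusted p = 0.178), HIST1H3B (-0.25, adjusted p = 0.406) and DDX23 (-0.43, adjusted p = 0.361). Others were larger and called, such as BHLHE40 (1.40, adjusted p = 0.00684) and GNG5 (-1.15, adjusted p = 0.00145).

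Among the 12 largest rises of genes with 50 TPM or more on average over the 6 libraries, DUSP5 led. The TPM unit in reads differs between genes, so this cut is no fixed number of reads. In siVPS37AC replicate 1 EGFR had 3264 reads at 46.5 TPM and HIST1H2BM 246 reads at 74.2 TPM. DUSP5, a nuclear phosphatase that inactivates the MAP kinase ERK, had 118, 176 and 122 TPM in siVPS37AC cells, against 62.6, 92.8 and 73.2 TPM in siVPS37C cells. Every siVPS37AC library lay above every siVPS37C library, replicate 2 being the highest in both groups, and the rise was 0.85 (SE 0.16, adjusted p = 0.00906). FAM3C, which encodes a secreted cytokine-like protein, had 164, 157 and 134 TPM in siVPS37AC cells and 83.6, 87.2 and 105 TPM in siVPS37C cells. The FAM3C libraries did not overlap, with the narrowest gap in pair 3, and the rise was 0.72 (SE 0.13, adjusted p = 0.00906). NAMPT, the rate-limiting enzyme of NAD salvage, rose by 0.64 (SE 0.13), and RND3, an atypical small GTPase that opposes actomyosin contraction, by 0.64 (SE 0.16). CST7, a cystatin that inhibits lysosomal cysteine proteases, had 320, 273 and 274 TPM in siVPS37AC cells and 213, 167 and 178 TPM in siVPS37C cells, a rise of 0.64 (SE 0.14). VCP, the ATPase that extracts ubiquitinated proteins from membranes and complexes, had 778, 662 and 539 TPM in siVPS37AC cells, against 479, 396 and 421 TPM in siVPS37C cells, a rise of 0.60 (SE 0.15, adjusted p = 0.0367). The VCP groups did not overlap, and the difference was smallest in pair 3. VCP was called in 7 and RND3 in 6 of 16 alternative fits. YPEL5, a subunit of an E3 ubiquitin ligase, TM4SF1, a tetraspanin-like surface protein, and PRSS22, an epithelial serine protease, rose by 0.61, 0.59 and 0.57; of the 12 genes only YPEL5 had overlapping groups.

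**Figure D2:**
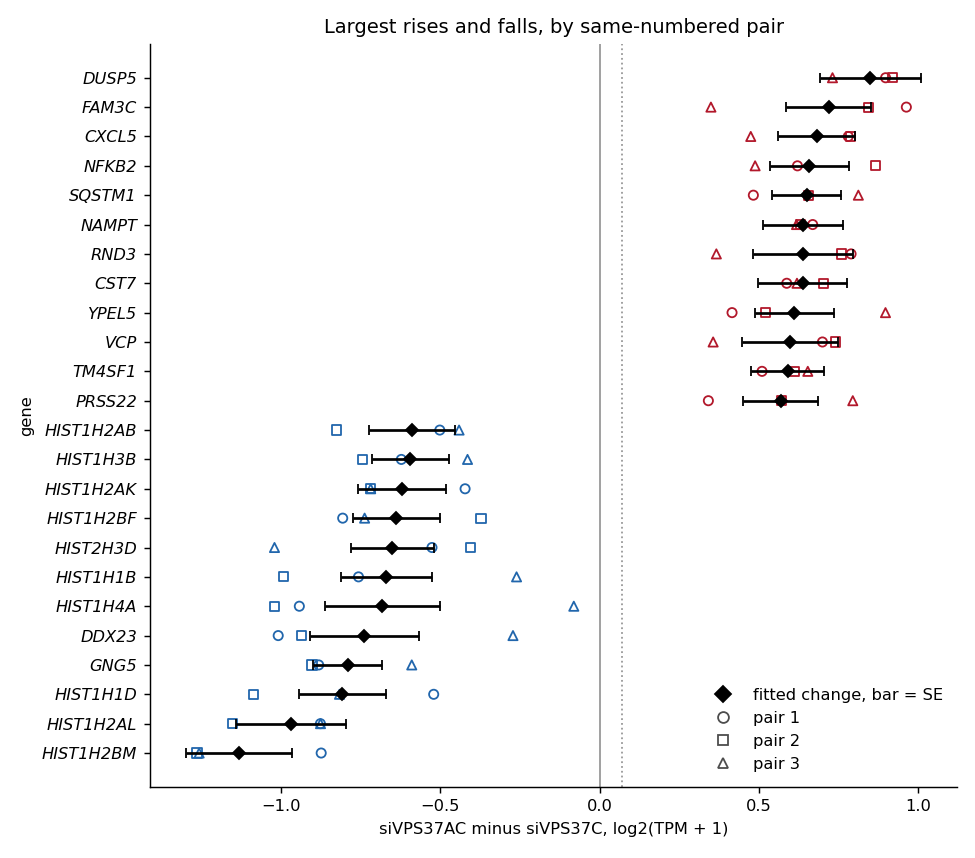
Difference in log2(TPM + 1) between siVPS37AC and siVPS37C (horizontal axis) for the 12 largest rises and 12 largest falls among called genes that averaged 50 TPM or more. Black diamonds are the fitted difference with its SE, open symbols the 3 same-numbered pairs, and the dotted line is the median of all tested genes (0.07); every pair lies on the same side of 0 as the fit, as the choice of these genes required, and pair 3 of HIST1H4A lies closest to 0.

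Genes that report on inflammatory signalling were mostly higher, with few past the threshold. Of 10 tested cytokines and chemokines, 3 rose and none fell, with a median difference of 0.48 over the 10, beside 1.88% of all genes called higher and a median of 0.07. CXCL5, a chemokine that attracts neutrophils, had 383, 437 and 398 TPM in siVPS37AC cells, against 223, 253 and 286 TPM in siVPS37C cells. The groups were separate, and CXCL5 rose by 0.68 (SE 0.12, adjusted p = 0.00722). IL32, a cytokine that induces other inflammatory mediators, had 40.5, 54.3 and 43.1 TPM in siVPS37AC cells and 28.4, 24.1 and 21.9 TPM in siVPS37C cells, a rise of 0.86 (SE 0.19, adjusted p = 0.0188). LCN2, a siderophore-binding protein of epithelial defence, had 48.9, 77.8 and 50.4 TPM in siVPS37AC cells and 32, 44.4 and 22.1 TPM in siVPS37C cells, a rise of 0.85 (SE 0.14, adjusted p = 0.00571). IL32 and LCN2 libraries did not overlap between the groups, although replicate 1 of siVPS37AC and replicate 2 of siVPS37C came close for LCN2.

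Of 14 tested NF-kB subunits and feedback genes 2 rose and none fell (median 0.34), beside 1.88% of all tested genes higher and 0.525% lower. NFKB2, which encodes the p100 precursor of the p52 subunit, had 83.8, 101 and 89.6 TPM in siVPS37AC cells and 54.2, 54.8 and 63.6 TPM in siVPS37C cells. Its groups were separate, and it rose by 0.66 (SE 0.12, adjusted p = 0.00988). NFKBIZ, a nuclear inhibitor-like cofactor of NF-kB, had 13.1, 11.6 and 10.2 TPM in siVPS37AC cells and 7.61, 6.08 and 5.65 TPM in siVPS37C cells, and rose by 0.77 (SE 0.16, adjusted p = 0.0147). Without siVPS37AC replicate 2 neither list kept a call, as for all genes, while the medians stayed at 0.45 for the cytokines and 0.30 for the NF-kB genes. The fit with the library number moved the NF-kB median to 0.03, with 2 genes called higher and 3 lower. For the cytokines it gave a median of 0.52, with 2 called higher and none lower.

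Promoter sequences of called genes are shown because the kappa B motif, the DNA element bound by NF-kB dimers, was found in a promoter window of each of the 5 cytokine and NF-kB genes that rose. The sequences are from RefSeq on GRCh38.p14 and run 5′ to 3′ on the gene's strand over the 160 bases before the annotated start, with matches to the motif in capitals; overlapping matches on both strands are joined. The CXCL5 stretch is chr4:73998678-73998837 on the minus strand, and the IL32 stretch is chr16:3065243-3065402 on the plus strand. NFKB2 has 2 annotated starts with a match, preceded by chr10:102394418-102394577 and chr10:102395545-102395704 on the plus strand. A further annotated start of NFKB2 and a further start of IL32 had no match. A gene was counted as holding the motif if the window of any of its starts did.
CXCL5: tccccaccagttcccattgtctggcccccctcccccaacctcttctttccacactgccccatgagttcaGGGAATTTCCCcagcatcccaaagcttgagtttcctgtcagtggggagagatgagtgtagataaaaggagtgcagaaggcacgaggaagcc
IL32: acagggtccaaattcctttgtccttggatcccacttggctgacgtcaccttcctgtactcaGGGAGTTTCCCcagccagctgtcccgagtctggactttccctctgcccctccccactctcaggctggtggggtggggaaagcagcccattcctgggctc
NFKB2, upstream start: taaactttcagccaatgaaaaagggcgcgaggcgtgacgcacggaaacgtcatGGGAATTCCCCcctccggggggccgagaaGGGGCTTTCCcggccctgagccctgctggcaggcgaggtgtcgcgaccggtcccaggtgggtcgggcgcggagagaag
NFKB2, downstream start: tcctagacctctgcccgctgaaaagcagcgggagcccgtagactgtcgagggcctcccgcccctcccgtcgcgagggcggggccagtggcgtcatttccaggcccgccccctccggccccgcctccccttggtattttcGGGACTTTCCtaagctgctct
Searched on both strands over 250 bases before to 50 after the start, the motif was present in 12 of the 18 tested cytokine and NF-kB genes with a sequence. It was present in 8.68% of all tested genes with a sequence and in 5.91% of 35116 promoter windows. Of the 102 genes called higher that had a sequence, 12 (11.8%) held it. A match describes the letters of a window and does not show binding.

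Of 9 tested receptors of the TNF family, which ESCRT-I is known to sort, 2 rose and none fell (median 0.27). The shares of all tested genes were 1.88% called higher and 0.525% called lower. TNFRSF10A, a death receptor for TRAIL, had 58.0, 57.4 and 61.2 TPM in siVPS37AC cells, against 40.6, 33.8 and 36.7 TPM in siVPS37C cells. The siVPS37AC libraries lay close together and all above the siVPS37C libraries, and the rise was 0.66 (SE 0.12, adjusted p = 0.00821). TNFRSF21, death receptor 6, had 120, 121 and 111 TPM in siVPS37AC cells and 92.8, 90.5 and 92.0 TPM in siVPS37C cells, a rise of 0.35 (SE 0.09, adjusted p = 0.0337). TNFRSF10A was called in 10 of 15 alternative fits and TNFRSF21 in 5 of 16.

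EGFR, the best known ESCRT cargo, and its feedback genes gave 3 rises among 9 tested genes (median 0.35), beside 1.88% of all tested genes. In the fit with the library number 4 of the 9 were called higher and 3 lower, with a median of 0.78. EGFR transcript had 46.5, 51.0 and 51.8 TPM in siVPS37AC cells and 31.2, 36.1 and 35.2 TPM in siVPS37C cells, with no overlap, and rose by 0.53 (SE 0.11, adjusted p = 0.0147). ERRFI1, an inhibitor of the EGFR kinase, had 20.2, 25.4 and 16.2 TPM in siVPS37AC cells and 13.3, 11.4 and 7.73 TPM in siVPS37C cells. It rose by 0.88 (SE 0.17, adjusted p = 0.00922) and was separate between the groups. SPRY2, a feedback inhibitor of receptor tyrosine kinase signalling, rose by 0.57 (SE 0.14, adjusted p = 0.0367). Of the 15 alternative fits that tested them, 3 called SPRY2, 10 called ERRFI1 and 11 called EGFR.

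Among 9 tested MAP kinase phosphatases 3 rose (DUSP5, DUSP1 and DUSP10) and none fell, with a median of 0.33. The shares of all tested genes were 1.88% called higher and 0.525% called lower. DUSP1 had 43.4, 38.6 and 37.1 TPM in siVPS37AC cells, against 25.7, 24.8 and 19.2 TPM in siVPS37C cells, a rise of 0.76 (SE 0.19, adjusted p = 0.0367). DUSP10, which acts on p38 and JNK, rose by 0.54 (SE 0.14, adjusted p = 0.0434). DUSP1 was called in 2 and DUSP10 in 1 of 15 alternative fits, and DUSP5 in 12 of 16. With median-of-ratios scaling, quantile normalization, a pseudocount of 8 or voom, 1 gene of the list passed. The fit with the library number called 1 higher and 1 lower, with a median of 0.10.

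Of 14 tested immediate early transcription factors 3 rose (median 0.32), beside 1.88% of all tested genes. In the fit with the library number 2 of the 14 were called higher and 3 lower, with a median of -0.12. BHLHE40, a repressor that many stimuli induce, had 60.8, 80.4 and 55.0 TPM in siVPS37AC cells and 35.3, 31.8 and 32.1 TPM in siVPS37C cells; even the lowest siVPS37AC library stood clear of the siVPS37C libraries, and the rise was 0.95 (SE 0.17, adjusted p = 0.00722). KLF6 had 30.2, 32.2 and 29.9 TPM in siVPS37AC cells and 20.5, 17.4 and 18.3 TPM in siVPS37C cells, a rise of 0.69 (SE 0.15). ATF3, induced by many kinds of stress, had 34.3, 44.0 and 22 TPM in siVPS37AC cells and 14.2, 25 and 14.6 TPM in siVPS37C cells. The ATF3 groups overlapped, and its rise of 0.85 (SE 0.22, adjusted p = 0.0434) passed narrowly. ATF3 was called in 2 of 15 alternative fits, KLF6 in 8 of 15 and BHLHE40 in 13 of 16.

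In the list of autophagy genes 3 of 23 rose and none fell (median 0.18), beside 1.88% of all tested genes higher and 0.525% lower. SQSTM1, the selective autophagy receptor p62, had 501, 629 and 571 TPM in siVPS37AC cells, against 358, 399 and 325 TPM in siVPS37C cells. The lowest siVPS37AC library was well above the highest siVPS37C library, and the rise was 0.65 (SE 0.11, adjusted p = 0.00571). FNIP1, a partner of folliculin in nutrient signalling at the lysosome, had 26.8, 28.4 and 28.8 TPM in siVPS37AC cells and 17.6, 16.0 and 19.7 TPM in siVPS37C cells. It rose by 0.63 (SE 0.10), and its paralog FNIP2 by 0.55 (SE 0.11). Of 35 lysosomal genes 2 rose, the protease gene CTSZ by 0.56 (SE 0.11) and the V-ATPase subunit gene ATP6V0A1 by 0.49 (SE 0.13), and the median of 0.11 was close to that of all genes. CTSZ was called in 9 and ATP6V0A1 in 3 of 15 alternative fits. VPS39, a subunit of the HOPS complex that tethers lysosomes, was the only call among 29 traffic genes, at 0.57 (SE 0.13). Of all tested genes 2.41% were called, and VPS39 was called in 5 of 15 alternative fits.

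The lists of stress pathways held 1 or 2 calls or none, beside 2.41% of all tested genes called. SESN2, a leucine sensor that restrains mTORC1, had 38.5, 56.1 and 53 TPM in siVPS37AC cells and 23.6, 28.5 and 31.6 TPM in siVPS37C cells. It was separate between the groups and rose by 0.79 (SE 0.14, adjusted p = 0.00722). SESN2 and NARS, the asparaginyl-tRNA synthetase (a rise of 0.50, SE 0.12), were the 2 calls among 29 ATF4 targets and tRNA synthetases, and SESN2 was the only call among 12 p53 targets. EDEM1, which directs misfolded glycoproteins to degradation, rose by 0.54 (SE 0.12) as the only call among 22 genes of the unfolded protein response. SESN2 was called in 12 and EDEM1 in 7 of 15 alternative fits, and NARS in 7 of 16. None of 19 NRF2 targets passed (median 0.15), nor did any of 27 sterol and fatty acid synthesis genes (median 0.19), 20 hypoxia genes (median 0.10), 10 apoptosis regulators (median 0.06) or 10 YAP targets (median 0.04). Lists of this length may hold no call where 2.41% of all tested genes were called.

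**Figure D3:**
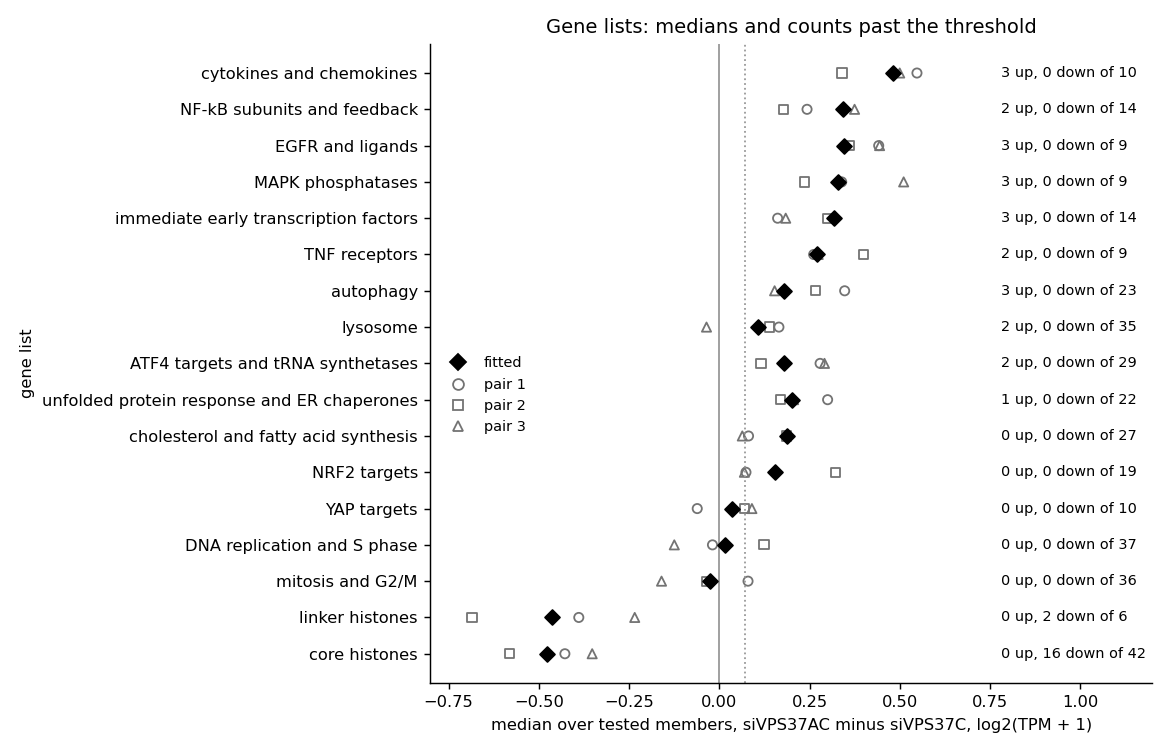
Median difference in log2(TPM + 1), siVPS37AC minus siVPS37C (horizontal axis), over the tested members of 17 gene lists; black diamonds are the fit, open symbols the 3 pairs, and the dotted line is the median of all tested genes. At the right stand the numbers of members called higher and lower: 16 of 42 core histones and 2 of 6 linker histones were lower, and no other list drawn had a member called lower. Of all tested genes 1.88% were called higher and 0.525% lower.

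Histone transcripts fell, and their share of the falls depended on the scaling and the fit. Of the 34 genes called lower, 19 were histone genes, 18 of them in the core and linker histone lists. Of these lists 19 were among 47 lower genes with median-of-ratios scaling, 20 among 45 with voom and 12 among 29 after quantile normalization. In the fit with the library number 23 were among 546 lower genes, with 20 core histones called lower and a core median of -0.65. Among the core histones of the list 16 of 42 fell and none rose, with a median of -0.48, beside 0.525% of all genes called lower. Without the replicate block 1 core histone passed; without siVPS37AC replicate 1 or 2 the count was 4 or 0, and without siVPS37C replicate 1, 2 or 3 it was 8, 2 or 8, while the median stayed between -0.54 and -0.41. Of the 42, 30 were lower in all 3 pairs and 1 was higher in all 3, beside 10.1% and 25.2% of all tested genes. Of 6 tested linker histones 2 fell (median -0.46), and all 6 were lower in every pair. The core histones of the list are those made in S phase, whose messages end in a stem-loop in place of a poly(A) tail. The 50 histone genes of both lists together took 5.22%, 4.83% and 4.85% of the TPM in siVPS37AC libraries, against 7.20%, 7.21% and 5.99% in siVPS37C libraries. The shares did not overlap. They are shares of TPM, whose unit in reads differs between genes, and not shares of reads. In bulk RNA fewer cells in S phase and less histone RNA per cell cannot be told apart. Near-identical copies among histone genes may share reads, so the value of a single copy is uncertain.

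HIST1H2BM, an H2B gene, had the largest fall, with 74.2, 59.7 and 56.4 TPM in siVPS37AC cells and 137, 145 and 136 TPM in siVPS37C cells. All pairs showed it, and the difference was -1.13 (SE 0.17, adjusted p = 0.00265). HIST1H2AL, an H2A gene, had 192, 139 and 155 TPM in siVPS37AC cells and 353, 310 and 285 TPM in siVPS37C cells, a difference of -0.97 (SE 0.17, adjusted p = 0.00722). HIST1H3B, the most abundant of the H3 genes named here, had 4643, 4634 and 5111 TPM in siVPS37AC cells, against 7148, 7766 and 6814 TPM in siVPS37C cells. It was separate between the groups by a wide margin, with a difference of -0.59 (SE 0.12, adjusted p = 0.0152). HIST1H3J had 2755, 2336 and 2365 TPM in siVPS37AC cells and 4208, 3737 and 3169 TPM in siVPS37C cells, a difference of -0.57 (SE 0.10, adjusted p = 0.00609). For HIST1H4A, an H4 gene, replicate 3 of siVPS37C (1180 TPM) lay close to the siVPS37AC libraries (1044, 1055 and 1115 TPM), while the other siVPS37C libraries had 2007 and 2142 TPM. Its difference was -0.68 (SE 0.18, adjusted p = 0.0478). Of the linker histones, which bind DNA between nucleosomes, HIST1H1D had 246, 293 and 265 TPM in siVPS37AC cells and 353, 622 and 467 TPM in siVPS37C cells, a difference of -0.81 (SE 0.14, adjusted p = 0.00597). HIST1H1B fell by 0.67 (SE 0.14), with its smallest change in pair 3.

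The promoter of HIST1H2BM is shown because it holds the octamer ATTTGCAT, an element known from H2B promoters that OCT1 binds. It is from RefSeq on GRCh38.p14, chr6:27814862-27815021 on the plus strand, the 160 bases before the start of the gene, now named H2BC14, with the octamer in capitals.
HIST1H2BM: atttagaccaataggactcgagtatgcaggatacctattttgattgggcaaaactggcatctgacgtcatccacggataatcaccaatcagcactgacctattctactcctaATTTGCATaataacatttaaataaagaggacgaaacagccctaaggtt
In windows of 250 bases before to 50 after the start, searched on both strands, the octamer was present in 6 of the 9 tested H2B genes with a sequence, in 10 of 25 other tested core histone genes, and in 1.77% of all 35116 windows. Of the 27 genes called lower that had a sequence, 7 held it, and none of 102 genes called higher did, beside 1.825% of all tested genes with a sequence. Since 19 of the 34 genes called lower were histone genes, the first count is not separate from theirs. The second count is near the share of all tested genes.

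**Figure D4:**
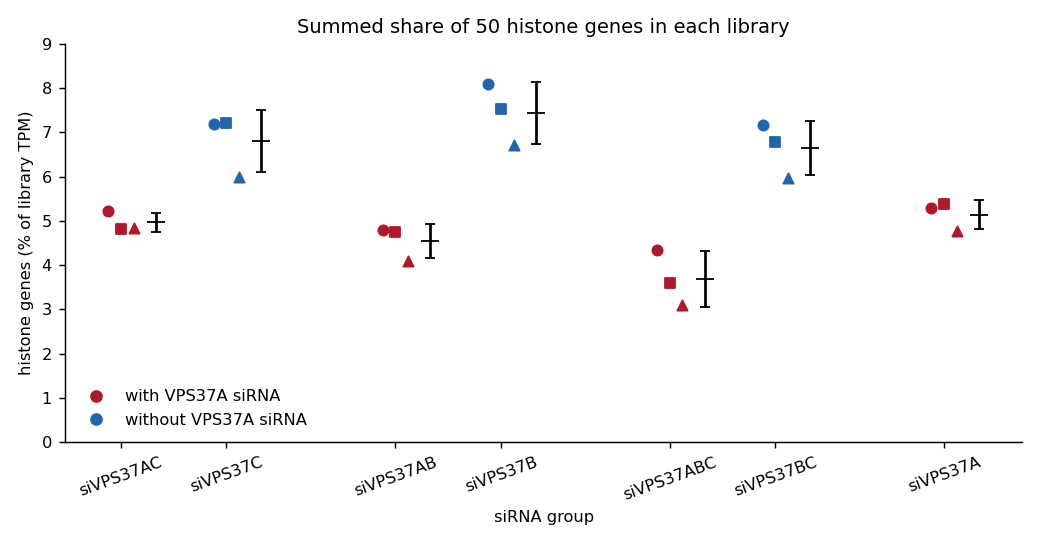
Summed share of the 50 histone genes in the TPM of each library (vertical axis, %, from 0) in the 7 knockdown groups; symbols are replicates 1 (circle), 2 (square) and 3 (triangle), red where VPS37A siRNA was given, and black bars are the mean and SD of 3 libraries. The siVPS37AC libraries lie between 4.83% and 5.22%, below the siVPS37C libraries at 5.99% to 7.21%.

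No gene of the cell cycle lists passed in either direction, among 37 genes of DNA replication and S phase (median 0.01) and 36 mitosis genes (median -0.03). With 2.41% of all tested genes called, this is near the overall share and does not show that the cell cycle was unchanged. CCNE2, the cyclin that drives entry into S phase, had 7.36, 8.08 and 9.31 TPM in siVPS37AC cells and 8.87, 10.8 and 23.9 TPM in siVPS37C cells. The difference of -0.63 (SE 0.19, adjusted p = 0.084) missed the threshold, and replicate 3 of siVPS37C stood apart from the other 5 libraries. AURKA, a mitotic kinase, was lower in siVPS37AC cells in every pair, with a difference of -0.46 (SE 0.14, adjusted p = 0.084). ESCO2, an acetyltransferase of cohesin that acts in S phase, was among the 15 other genes called lower, at -0.83 (SE 0.14, adjusted p = 0.00571); it was singled out after its values were seen.

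Outside the histones, GNG5 and DDX23 were the falls named by the rule of size. GNG5, a gamma subunit of heterotrimeric G proteins, had 254, 291 and 370 TPM in siVPS37AC cells, against 468, 544 and 558 TPM in siVPS37C cells. The groups were separate, and the difference of -0.79 (SE 0.11) had the smallest adjusted p of all tested genes (0.00196). DDX23, a helicase of the spliceosome, had 44.2, 43.5 and 53.9 TPM in siVPS37AC cells and 89.9, 84.1 and 65.3 TPM in siVPS37C cells, with the narrowest gap in pair 3 and a difference of -0.74 (SE 0.17, adjusted p = 0.024). Respiratory chain genes held a call in each direction among 36 tested, beside 1.88% of all tested genes higher and 0.525% lower. NDUFA2, a subunit of complex I, had 202, 200 and 203 TPM in siVPS37AC cells and 266, 346 and 298 TPM in siVPS37C cells (-0.58, SE 0.12, adjusted p = 0.0167), while ATP5H, a subunit of ATP synthase, rose by 0.37 (SE 0.10). NDUFA2 was called in 11 and ATP5H in 3 of 16 alternative fits.

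The other combinations of the series show the size of these differences beside other missing paralogs. Adding the VPS37A siRNA to the VPS37B siRNA (siVPS37AB against siVPS37B) changed 1628 of 6480 genes (25.1%), with 18.3% higher and 6.82% lower, and adding it to both others (siVPS37ABC against siVPS37BC) changed 1513 (23.3%), with 13.2% higher and 10.2% lower. These splits moved with scaling: 1186 genes were higher and 442 lower in siVPS37AB against siVPS37B cells with TPM as deposited, 702 and 751 with median-of-ratios scaling, 736 and 678 after quantile normalization and 850 and 537 with voom. In siVPS37ABC against siVPS37BC cells 854 were higher and 659 lower with TPM as deposited, and 713 and 863 with voom. A test of the difference between the changes, over groups that share no library, gave 23 genes (0.355%) for siVPS37AC against siVPS37C relative to siVPS37AB against siVPS37B, of which 4 (0.0617%) differed upwards and 19 (0.293%) downwards. Relative to siVPS37ABC against siVPS37BC it gave 102 genes (1.57%), 40 (0.617%) upwards and 62 (0.957%) downwards. With quantile normalization the first test gave 9 upwards and 20 downwards, and with median-of-ratios scaling the second gave 26 and 108. Leaving out 1 of the 6 siVPS37AC and siVPS37C libraries gave 0 to 15 genes in the first test, with 0 (639 at an unadjusted p under 0.05 in limma) without siVPS37AC replicate 3, and 26 to 89 in the second, with 26 without siVPS37AC replicate 1. In simulated data with the same group sizes, this test found 88.1% and 87.9% of 2-fold differences but 26.4% and 25.4% of 1.5-fold ones. These shares assume independent noise with the spread and replicate effects of the fit.

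IL32 differed in both tests. It had 46.0 ± 7.3 TPM in siVPS37AC and 24.8 ± 3.3 TPM in siVPS37C cells, 123 ± 5.3 TPM in siVPS37AB and 27.2 ± 7.6 TPM in siVPS37B cells, and 141 ± 22 TPM in siVPS37ABC and 29.6 ± 12 TPM in siVPS37BC cells (SD, n = 3 each). The difference between its changes was -1.31 (SE 0.27, adjusted p = 0.0404) against the change beside VPS37B loss and -1.40 (SE 0.27, adjusted p = 0.0095) against that beside loss of both, so its rise was the smallest of the 3. DUSP5 averaged 139 ± 33 TPM in siVPS37AC and 76.2 ± 15 TPM in siVPS37C cells, 425 ± 55 TPM in siVPS37AB and 104 ± 16 TPM in siVPS37B cells, and 410 ± 26 TPM in siVPS37ABC and 102 ± 26 TPM in siVPS37BC cells. The differences between its changes were -1.17 (SE 0.22, adjusted p = 0.0247) and -1.18 (SE 0.22, adjusted p = 0.0095). For NFKB2 they were -0.89 (SE 0.18, adjusted p = 0.0342) and -0.86 (SE 0.18, adjusted p = 0.0156). For SQSTM1 the difference of changes was -0.46 (SE 0.15, adjusted p = 0.201) beside VPS37B loss and -1.09 (SE 0.15, adjusted p = 0.00106) beside loss of both. SRXN1, which reduces oxidised peroxiredoxins, had 52.0, 59.6 and 51.5 TPM in siVPS37AC cells and 44.9, 43.8 and 32.2 TPM in siVPS37C cells, an uncalled difference of 0.43 (SE 0.17, adjusted p = 0.162). In siVPS37AB against siVPS37B cells SRXN1 rose by 1.74 (SE 0.17), and both tests of the difference passed.

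Other members changed by amounts that the tests could not tell apart from those in the other combinations. GNG5 fell by 0.79 (SE 0.11) on adding the VPS37A siRNA to the VPS37C siRNA, by 0.69 (SE 0.11) beside VPS37B siRNA and by 0.58 (SE 0.11) beside both. The differences between these changes were -0.10 and -0.21 (SE 0.15 each, adjusted p = 0.841 and 0.555). CXCL5 rose by 0.85 (SE 0.12) in siVPS37AB against siVPS37B cells; in siVPS37ABC against siVPS37BC cells its difference was 0.30 (SE 0.12, adjusted p = 0.0777). For CXCL5 the tests of the difference gave adjusted p = 0.727 and 0.28. NFKBIZ rose by 0.62 and 0.55 (SE 0.16 each) in those comparisons, and its tests gave adjusted p = 0.841 and 0.693. DDX23 had differences of -0.06 and -0.28 (SE 0.17 each) there, neither past the threshold, and the test of the difference did not pass either (adjusted p = 0.223 and 0.376).

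Of the 42 core histones 16 were called lower beside VPS37C loss, 32 beside VPS37B loss and 35 beside loss of both, with medians of -0.48, -0.70 and -0.90. Of all tested genes 0.525%, 6.82% and 10.2% were called lower in these comparisons, so the number of calls grew in general. Of the core histones 0, 1 and 2 were called higher, beside 1.88%, 18.3% and 13.2% of all tested genes. In the test of the difference, 1 differed upwards from the change beside VPS37B loss and 4 from that beside loss of both. For HIST1H2BM the changes were -1.13, -2.13 and -1.99 (SE 0.17 each), and the tests of the difference gave 1.00 (adjusted p = 0.0684) and 0.86 (adjusted p = 0.0652), short of the threshold. HIST1H1D differed from the change beside loss of both by 1.22 (SE 0.19, adjusted p = 0.00252). The summed histone share was 4.97% ± 0.22 in siVPS37AC and 6.80% ± 0.70 in siVPS37C cells, 4.54% ± 0.39 in siVPS37AB and 7.45% ± 0.70 in siVPS37B cells, and 3.69% ± 0.63 in siVPS37ABC and 6.64% ± 0.61 in siVPS37BC cells (SD, n = 3 each).

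**Figure D5:**
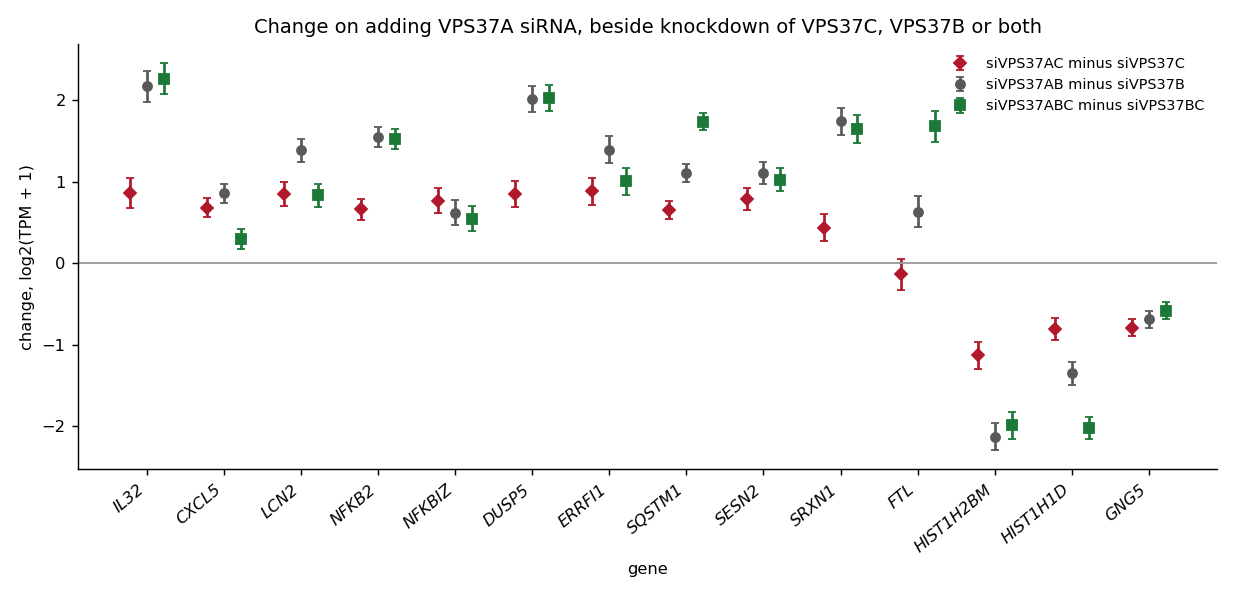
Change in log2(TPM + 1) with its SE on adding the VPS37A siRNA beside knockdown of VPS37C (red diamonds), VPS37B (grey circles) or both (green squares), for 14 genes. IL32, DUSP5 and NFKB2 rose by 0.86, 0.85 and 0.66 beside VPS37C loss and by 1.52 to 2.26 in the other settings, while GNG5 fell by 0.58 to 0.79 in all 3.

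Set against the other of its parts, siVPS37AC differed from siVPS37A (VPS37A siRNA alone) in 126 of 6480 genes (1.94%), 65 (1%) of them higher and 61 (0.941%) lower; this comparison uses the same siVPS37AC libraries, and it gave 55 and 39 genes without siVPS37AC replicate 1 or 2. VPS37C itself had 4.02 TPM on average in siVPS37AC and 18.4 ± 8.5 TPM in siVPS37A cells (-1.88, SE 0.21, adjusted p = 3.1e-05). IL32, CXCL5, NFKB2 and SQSTM1 differed between siVPS37AC and siVPS37A by -0.09, 0.11, -0.12 and -0.19, none past the threshold. LCN2 was lower in siVPS37AC cells than in siVPS37A cells, where it averaged 121 ± 48 TPM, with a difference of -0.99 (SE 0.14, adjusted p = 0.000405).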

How the data were processed

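Expression was measured with an amplicon panel in 27 libraries of DLD1 cells, 3 for each of 7 knockdown groups, control siRNA and untransfected cells. Per the submitters' processing notes HTSeq 0.6.0, DESeq2 1.18.1 and the build hg19 were used; the role of each is not given in the sources used here. The deposited values are TPM, since each column of 10470 genes sums to 1000000 and steps by a unit that differs between genes. From those steps whole reads were recovered for 100% of the genes, to a tolerance of 0.01 read. Count models were not applied to TPM, and alternatives meant for counts were replaced by limma-voom on the recovered reads. Reads come from PCR without molecular identifiers stated, so depth covers counting error only. Nothing beyond the word biological says how separate the replicate cultures were, and p-values measure the spread between these libraries. Replicates of a group differed by more than sampling noise (chi-square per degree of freedom of 12.0 or more).

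TPM were taken as log2(TPM + 1). Genes averaging 10 TPM or more over the 21 knockdown libraries were fitted in limma 3.58.1 (R 4.3.3) with group means, the replicate number as a block, 12 residual degrees of freedom and a trended prior; p-values were adjusted by Benjamini-Hochberg over 6480 genes, threshold 0.05. VPS37A, MVB12A and MVB12B and other genes under that mean come from the same fit without the filter. The labels give the replicate number as the batch, and deviations from the group means of siVPS37AC and siVPS37C libraries with the same number correlated at 0.27, 0.37 and 0.14. Over all 7 knockdown groups, which share the block, the mean correlation was 0.37 for libraries of the same number and -0.18 for those of different numbers. Deviations within a group cancel by construction, so the second mean largely follows from the first and is no separate evidence. The lowest correlation between a siVPS37AC or siVPS37C library and a same-numbered library of another knockdown group was -0.24. In simulated data the fit found 73.5% of 1.5-fold and 99.0% of 2-fold changes between siVPS37AC and siVPS37C, among 200 changed of 6480 genes, with 10.0 false calls on average. The simulation drew independent normal noise with the spread and replicate effects of the fit itself. It held no effect of the library number, so these figures hold only under the assumptions of the fit. Genes named are the 12 largest rises and 12 largest falls among called genes averaging 50 TPM or more whose 3 pairs moved alike, up to 4 called members of each gene list (or 2 uncalled), the 4 largest in each direction of each difference of differences, and ESCRT-I; some were left out for length or are not reported here. The comparison, its lists and the rule were chosen with earlier results of these data known. Gene lists were described by counts and medians without a test. Of 39 lists, 3 marker lists had no member abundant enough to test and 17 had no call. Alternatives tried were the block, the libraries in the fit, the pseudocount, the filter, the scaling and leaving out each siVPS37AC or siVPS37C library.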

Additional observations from a re-analysis of the deposited data

Results flagged for a closer look

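A test of the difference between changes singled out genes whose response to the VPS37A siRNA beside VPS37C loss differed from that beside other losses. Relative to siVPS37AB against siVPS37B, 23 genes passed, and the largest of them with a mean of at least 50 TPM were HIST1H2AJ (1.11), RARRES2 (0.89) and AMACR (0.65) upwards, and SRXN1 (-1.31), IL32 (-1.31), SERP1 (-1.27) and DUSP5 (-1.17) downwards, in log2(TPM + 1). HIST1H2AJ had an uncalled difference of -0.27 (SE 0.15) between siVPS37AC and siVPS37C and fell by 1.38 (SE 0.15) between siVPS37AB and siVPS37B. RARRES2, which encodes the chemoattractant chemerin, had an uncalled difference of -0.45 (SE 0.13) in the first comparison and fell by 1.34 (SE 0.13) in the second. For SERP1, a protein of the endoplasmic reticulum translocon, the changes were 0.28 (SE 0.19, uncalled) and 1.55 (SE 0.19). AMACR, a peroxisomal racemase, had an uncalled difference of 0.21 (SE 0.10) beside VPS37C loss and fell by 0.45 (SE 0.10) beside VPS37B loss.

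Relative to siVPS37ABC against siVPS37BC, 102 genes passed. The largest were HIST1H1D (1.22), HIST1H2BE (1.00), GDPD3 (0.86) and SDHAF3 (0.83) upwards, and FTL (-1.82), LAMB3 (-1.71), IL32 (-1.40) and SRXN1 (-1.21) downwards. FTL, the light chain of ferritin, had 2777, 3628 and 1962 TPM in siVPS37AC cells and 3004, 3353 and 2617 TPM in siVPS37C cells, an uncalled difference of -0.14 (SE 0.19). It averaged 7109 TPM in siVPS37ABC and 2224 TPM in siVPS37BC cells. LAMB3, a chain of laminin-332, had 39.6, 53.9 and 50.1 TPM in siVPS37AC cells and 49.5, 36.3 and 26.1 TPM in siVPS37C cells, overlapping, and averaged 124 ± 13 TPM in siVPS37ABC and 28.3 ± 3.8 TPM in siVPS37BC cells. GDPD3 and SDHAF3 fell by 0.75 and 0.69 (SE 0.13 each) in siVPS37ABC against siVPS37BC cells, with uncalled differences of 0.10 and 0.14 (SE 0.13 each) in siVPS37AC against siVPS37C cells.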

How the results depend on the processing

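Against 156 genes called between siVPS37AC and siVPS37C, 145 were called with all 27 libraries in the fit, 138 with a pseudocount of 8, 156 without the filter and 138 with limma-voom, which was chosen after seeing the data; these counts shared 129, 137, 121 and 125 genes with the 156. A mean of at least 50 TPM gave 65, quantile normalization 67, median-of-ratios scaling 91 and the 6 libraries alone 2. Without the replicate block, which the labels' pairing by batch asks for, the count was 11, and a term for the library number gave 1405. Leaving out 1 of the 6 siVPS37AC and siVPS37C libraries gave 0 to 194, and no library of another group was left out. For the difference from siVPS37AB against siVPS37B (23 genes) the count was 0 without the replicate block (410 at an unadjusted p under 0.05 in limma), 97 with the library number, 38 without the filter and 0 to 15 with 1 library left out. For the difference from siVPS37ABC against siVPS37BC (102 genes) it was 7 without the block, 1361 with the library number, 47 at a mean of at least 50 TPM, 170 with the 12 libraries compared and 26 to 89 with 1 library left out. For siVPS37AC against siVPS37A (126 genes) it was 22 without the block, 807 with the library number and 36 at a mean of at least 50 TPM. It was 39 to 138 with 1 siVPS37AC library left out. With 1 siVPS37C library left out, which lends only spread here, it was 114 to 151. For siVPS37AB against siVPS37B and siVPS37ABC against siVPS37BC it was 804 and 783 without the block and 629 and 634 at a mean of at least 50 TPM, where 2597 genes were tested.

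Of 59 called genes examined singly, none changed sign under the alternatives it was tested in (36 of them had a mean of at least 50 TPM); the number still called was 10 without the replicate block, 2 with the 6 libraries alone, 21 with the library number, 38 with quantile normalization, 44 with median-of-ratios scaling, 51 with limma-voom, and 0 to 50 with 1 library left out. VPS37A, under the 10 TPM filter, was tested only without it. VPS37C, uncalled, turned to -0.99 with the library number (adjusted p = 0.0311), to -0.030 with quantile normalization and to -0.011 with median-of-ratios scaling; it ranged from -0.021 to 0.21 with 1 library left out, below 0 without siVPS37AC replicate 2 or 3 or siVPS37C replicate 3. TSG101 ranged from -0.072 to 0.019 with 1 library left out, above 0 without siVPS37C replicate 2. With the library number BIK, KLF4, MYC, CCNE2 and CLDN4, also uncalled, turned to -0.37, -0.21, -0.030, 0.20 and -0.13. The cause of these moves was not tested. The DESeq2 alternative planned for counts was not run, since the values are TPM. VPS37A rests on 47 reads in siVPS37AC cells, which limits its precision there.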

Other observations

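Some called genes outside the lists and the rule of naming are given here, chosen after their values were seen. MXD1, which competes with MYC for its partner MAX, averaged 12.8 TPM in siVPS37AC and 6.45 TPM in siVPS37C cells, a rise of 0.88 (SE 0.13, limma adjusted p = 0.00265). LURAP1L rose by 0.93 (SE 0.22, adjusted p = 0.0291) with overlapping groups. WASHC5, a subunit of the WASH complex on endosomes, fell by 0.44 (SE 0.11, adjusted p = 0.0367) with overlapping groups. ARPC5, a subunit of Arp2/3, fell by 0.41 (SE 0.11, adjusted p = 0.0436). SUMO2, a ubiquitin-like modifier, averaged 360 TPM in siVPS37AC and 495 TPM in siVPS37C cells, a difference of -0.46 (SE 0.12, adjusted p = 0.0367).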
